A study of Mus musculus with 36 samples.

Results

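The period and cryptochrome genes encode the repressor arm of the circadian clock, and 6 of them were followed in mouse liver, namely Per1, Per2, Per3, Cry1, Cry2 and Ciart. They were taken by gene symbol from the 24421 genes counted in each of 36 liver RNA-seq libraries. All 6 were found in every library, and all 6 passed the filters on low counts. The rule itself uses no measured value, but the genes were proposed with earlier results of these data known.

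All libraries came from male C57BL/6J mice without a genetic change, purchased at 7 weeks of age and then fed for 12 weeks on a choline-deficient diet rich in fat (CDAHFD), which brings about steatohepatitis. In the HFD experiment, a high-fat diet followed for 2 weeks, with a subcutaneous injection once a week of Fc at 4.3 mg/kg (10 mice) or of Fc(mML1)B3 at 5 mg/kg (10 mice). In the standard diet experiment, a standard diet followed for 10 days, with injections of the same doses on days 1, 4 and 7, of Fc in 9 mice and of Fc(mML1)B3 in 7 mice. Fc(mML1)B3 is an agonist of Met, the receptor of hepatocyte growth factor, made by placing the Met-binding peptide mML1 in loop B3 of an immunoglobulin Fc, and Fc without the peptide was the control. Every group had therefore received the CDAHFD and an injected Fc protein. Diet goes together with experiment, number of injections and duration, and these cannot be told apart. The mice were kept under 12 h of light and 12 h of darkness, and the hour at which the livers were taken is not given in the sources used here. A difference between groups in these transcripts and a difference in the hour of collection therefore cannot be told apart, which holds for every comparison below.

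In the clock of mammalian cells, the activators BMAL1 (gene Arntl) and CLOCK bind E-boxes in DNA and switch on the Per and Cry genes. The PER and CRY proteins gather in a complex that enters the nucleus and inhibits these activators, and casein kinases and ubiquitin ligases set how long the complex lasts. Ciart, also called CHRONO, is a further repressor of BMAL1 and CLOCK. In the liver these transcripts rise and fall over the day with different peak times, and D-boxes, bound by DBP, TEF and HLF, and ROR elements, bound by ROR and REV-ERB receptors, add to the E-boxes in setting them.

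Promoter sequences were found for 5 of the 6 genes, in windows from 250 bases before to 50 bases after the start site (RefSeq, GRCm38.p6, which has the coordinates of mm10). The windows of Ciart, Per3, Cry1 and Cry2 are shown because the first 3 genes had the largest differences described below and Cry2 had none that passed the test. Capitals mark the letters CACGTG (E-box), CACGTT or its complement AACGTG (E-prime box) and TTATGTAA (D-box), each searched on both strands, and every sequence reads 5′ to 3′ on the strand of its gene.
Ciart, chr3:95882179-95882478, minus strand: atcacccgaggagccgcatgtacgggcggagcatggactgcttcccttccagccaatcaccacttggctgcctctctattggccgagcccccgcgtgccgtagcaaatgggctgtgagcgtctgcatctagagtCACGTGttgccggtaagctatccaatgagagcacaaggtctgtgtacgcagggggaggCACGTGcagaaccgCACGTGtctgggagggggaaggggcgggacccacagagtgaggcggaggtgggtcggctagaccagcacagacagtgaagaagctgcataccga
Per3, chr4:151044616-151044915, minus strand: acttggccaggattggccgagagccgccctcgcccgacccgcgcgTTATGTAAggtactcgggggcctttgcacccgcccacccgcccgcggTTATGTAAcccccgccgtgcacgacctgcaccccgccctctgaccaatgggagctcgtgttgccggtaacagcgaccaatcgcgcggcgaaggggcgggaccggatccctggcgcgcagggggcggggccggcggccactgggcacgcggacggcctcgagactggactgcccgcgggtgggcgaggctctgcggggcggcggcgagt
Cry1, chr10:85185005-85185304, minus strand: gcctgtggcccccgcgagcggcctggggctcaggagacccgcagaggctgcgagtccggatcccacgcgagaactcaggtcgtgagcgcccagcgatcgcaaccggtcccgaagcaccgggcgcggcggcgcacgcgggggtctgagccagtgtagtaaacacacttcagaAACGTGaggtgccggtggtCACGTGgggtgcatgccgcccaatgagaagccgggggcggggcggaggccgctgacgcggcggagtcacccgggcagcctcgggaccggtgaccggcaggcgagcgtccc
Cry2, chr2:92434020-92434319, minus strand: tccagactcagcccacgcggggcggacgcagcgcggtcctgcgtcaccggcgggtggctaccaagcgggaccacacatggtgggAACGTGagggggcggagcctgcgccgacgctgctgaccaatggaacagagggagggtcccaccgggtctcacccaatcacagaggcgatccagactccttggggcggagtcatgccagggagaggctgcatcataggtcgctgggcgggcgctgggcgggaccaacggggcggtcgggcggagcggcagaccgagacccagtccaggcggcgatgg

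The Ciart window held 3 E-boxes, which begin 116, 58 and 44 bases before the start site. An E-box stood in 7.15% of all 32851 promoter windows, and 3 or more stood in 0.0883% of them. Per3 held 2 D-boxes, at 205 and 158 bases before the start, and 2 or more of this form stood in 0.0213% of all windows. Cry1 held 1 E-box at 60 bases and 1 E-prime box at 79 bases before the start, and Cry2 held 1 E-prime box at 166 bases. An E-prime box was found in 4.68% of all windows. Per1 has 2 windows, of which the one at chr11:69098699-69098998 on the plus strand held 1 E-box at 166 bases before its start and the one at chr11:69099902-69100201 held none of the motifs. None of these 6 windows held the other D-box form TTACGTAA (0.119% of all windows), the ROR element ANTNGGTCA (2.24%) or the cyclic AMP response element TGACGTCA (1.79%). These are matches of letters and do not show binding.

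Total counts per library lay between 14949035 and 28466853, with medians of 19023641 and 20147652 in the Fc and Fc(mML1)B3 groups of the HFD experiment and 23088985 and 25968982 in those of the standard diet experiment. The libraries were liver by their markers, with 5 hepatocyte genes (Alb, Ttr, Apoa1, Cps1, Cyp2e1) summing to between 77995 and 150334 CPM (read counts divided by library size and scaled by TMM). In the library names, the Fc(mML1)B3 HFD libraries carry 2 number series, 1 for mice 1 to 4 and 1 for mice 5 to 10, and the Fc standard diet libraries carry 1 series for mice 1 to 5 and another, shared with the Fc(mML1)B3 libraries, for mice 6 to 9. The Fc HFD libraries are numbered 7 to 10 for mice 1 to 4 and 1 to 6 for mice 5 to 10. Fc(mML1)B3 HFD mice 5 to 10 also carry the numbers 1 to 6. The HFD fits with only 1 series of the Fc(mML1)B3 group kept all 10 Fc mice. Because RNA came from whole liver, fewer cells of a type and less RNA per cell cannot be told apart. Differences were tested over all genes by edgeR's quasi-likelihood method with Benjamini-Hochberg adjustment and were called at an adjusted p below 0.05.

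Under the HFD, Cry1 and, to a smaller extent, Per2 were higher in the Fc(mML1)B3 mice than in the Fc mice, and Ciart, Per3 and Per1 were lower, while Cry2 did not pass the test. Of the 6 genes, 5 were called, 2 higher and 3 lower, against 14.8% of the 13299 genes tested. Under the standard diet, Per1, Per2, Per3, Cry1 and Ciart were all higher with Fc(mML1)B3 and Cry2 again did not pass. These 5 of 6 compare with 16.1% of the 13570 genes tested that were called in either direction and 8.56% that were called higher. The median log2 fold change of the 6 genes was -0.37 with the HFD and 0.89 with the standard diet, beside -0.01 over all genes tested in both diets.

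**Figure D1:**
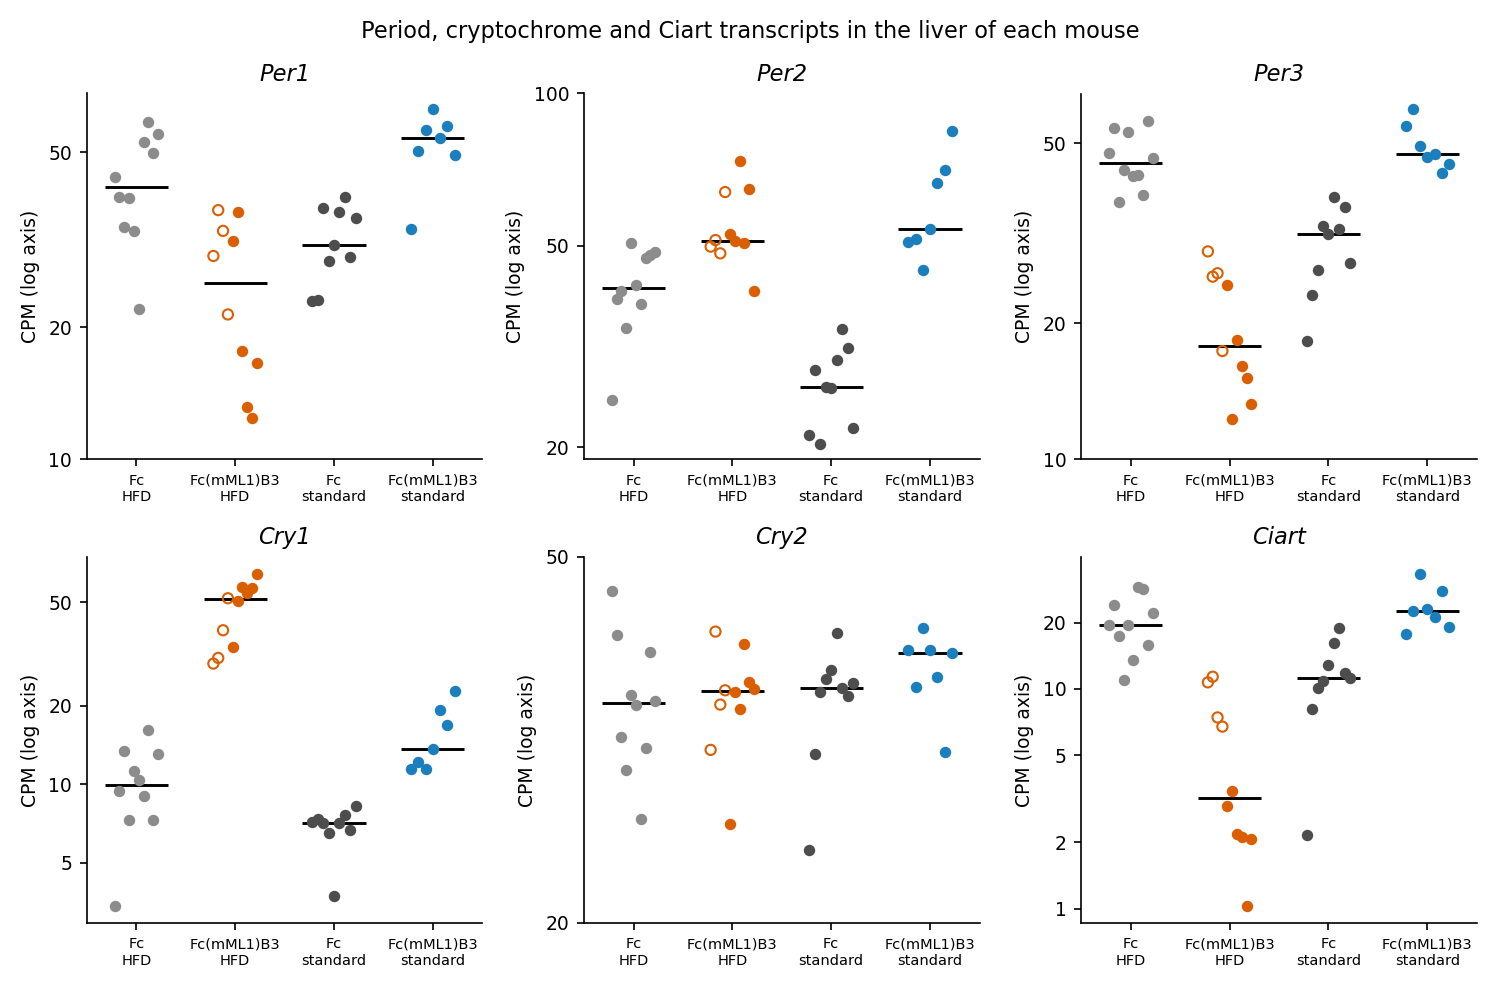
CPM of the 6 genes (log axis) in each mouse of the 4 groups, placed side by side in the order of mouse number, with the group median as a line and open circles for Fc(mML1)B3 HFD mice 1 to 4. Under the HFD all Fc(mML1)B3 mice lie above all Fc mice for Cry1 and below them for Per3, and for Cry2 the 4 groups overlap.

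Per1 encodes a PER protein whose gene also answers quickly to hormones and feeding. Under the HFD its lowest, median and highest levels were 22.1, 41.8 and 58.5 CPM in the Fc group and 12.4, 25.2 and 36.9 CPM in the Fc(mML1)B3 group. The median of the Fc mice was above each of the 10 Fc(mML1)B3 mice, and 5 of these were below every Fc mouse, so the groups overlapped. Per1 fell by 0.77 on the log2 scale (standard error 0.20, adjusted p = 0.0125 by edgeR), from a mean of 42.8 ± 11.4 CPM (SD, n = 10) to 24.8 ± 9.66 CPM (SD, n = 10). With mice 1 to 4 of the Fc(mML1)B3 group alone the log2 fold change of Per1 was -0.47 and was not called (adjusted p = 0.152), and with mice 5 to 10 alone it was -1.001 (adjusted p = 0.00915).

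With the standard diet Per1 ran from 23.0 over a median of 30.8 to 39.5 CPM in the Fc group and from 33.5 over 54.0 to 62.8 CPM in the Fc(mML1)B3 group. Here 6 of the 7 Fc(mML1)B3 mice lay above all Fc mice, and 1 mouse at 33.5 CPM lay among them. Per1 rose by 0.72 (standard error 0.12, adjusted p = 0.000447), the opposite direction to the HFD experiment.

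Per2 encodes a PER protein that forms the core of the repressor complex with CRY proteins. It was the only period gene that was higher with Fc(mML1)B3 under both diets. Levels in the HFD experiment had a lowest, median and highest value of 24.8, 41.3 and 50.7 CPM with Fc and of 40.6, 51.2 and 73.7 CPM with Fc(mML1)B3. The ranges overlapped, with 6 of 10 Fc(mML1)B3 mice above all Fc mice, and Per2 rose by 0.41 on the log2 scale (standard error 0.11, adjusted p = 0.0156). This was the smallest of the 5 called differences of this experiment. It was not called with mice 1 to 4 alone (0.39, adjusted p = 0.0989), where fewer mice entered the fit.

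In the standard diet experiment Per2 was between 20.3 and 34.2 CPM in the Fc group, with a median of 26.3 CPM, and between 44.7 and 84.3 CPM in the Fc(mML1)B3 group, with a median of 53.9 CPM. No mouse of one group lay within the range of the other. Per2 rose 2.26-fold, by 1.18 on the log2 scale (standard error 0.13, adjusted p = 3.7e-06), next to a rise of 1.16 for Cry1 in the same mice.

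Per3 encodes the third PER protein, which in mice is the least needed of the 3 for rhythm. In the HFD experiment it lay between 37.0 and 56.0 CPM in the Fc group (median 45.1 CPM) and between 12.3 and 28.8 CPM in the Fc(mML1)B3 group (median 17.9 CPM). The groups did not overlap. Per3 fell by 1.21 on the log2 scale (standard error 0.14, adjusted p = 3.8e-06), and it stood at rank 26 by p among the 13299 genes tested. The fall was -0.89 with mice 1 to 4 alone and -1.47 with mice 5 to 10 alone, called in both.

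In the standard diet experiment Per3 moved the other way, again without overlap. Its lowest, median and highest levels were 18.3, 31.5 and 38.1 CPM with Fc and 43.0, 47.5 and 59.6 CPM with Fc(mML1)B3. The log2 fold change of Per3 was 0.74 (standard error 0.12, adjusted p = 0.000184).

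Cry1 encodes the stronger of the 2 cryptochrome repressors, which acts late in the cycle. It had the lowest level of the 6 genes per kilobase of exon with Fc, at 3.34 ± 1.21 CPM per kb (SD, n = 10) under the HFD and 2.27 ± 0.423 CPM per kb (SD, n = 9) under the standard diet. Under the HFD it ran from 3.41 over a median of 9.92 to 16.2 CPM with Fc and from 29.1 over 51.2 to 64.3 CPM with Fc(mML1)B3. The lowest Fc(mML1)B3 mouse was thus above the highest Fc mouse. Cry1 rose by 2.22 on the log2 scale (standard error 0.20, adjusted p = 3.45e-07), a 4.68-fold difference at rank 5 by p among all genes tested. It was 1.93 with mice 1 to 4 alone and 2.398 with mice 5 to 10 alone.

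The standard diet groups of Cry1 did not overlap either, at 3.74, 7.12 and 8.29 CPM (lowest, median and highest) with Fc and 11.5, 13.6 and 22.9 CPM with Fc(mML1)B3. Cry1 rose 2.24-fold, by 1.16 on the log2 scale (standard error 0.15, adjusted p = 3.22e-05). Cry1 and Per2 were the members that rose under both diets.

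Cry2 encodes the second cryptochrome and did not pass the test in any comparison. Its lowest, median and highest levels under the HFD were 25.9, 34.7 and 45.9 CPM with Fc and 25.6, 35.7 and 41.5 CPM with Fc(mML1)B3. The corresponding standard diet levels were 23.97, 36.02 and 41.3 CPM with Fc and 30.7, 39.3 and 41.9 CPM with Fc(mML1)B3. The HFD groups covered nearly the same range, and under the standard diet 2 of 9 Fc mice lay below all Fc(mML1)B3 mice. The log2 fold change was 0.02 (95% confidence interval -0.17 to 0.21, adjusted p = 0.91) under the HFD and 0.11 (-0.07 to 0.29, adjusted p = 0.416) under the standard diet. Cry2 shares 149 exonic bases with D930015M05Rik on the opposite strand, and the counting ignored strand. D930015M05Rik had between 0 and 26 reads per library, against at least 415 for Cry2.

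In the HFD experiment Ciart lay between 10.9 and 28.997 CPM in the Fc group (median 19.6 CPM) and between 1.03 and 11.4 CPM in the Fc(mML1)B3 group (median 3.19 CPM), where the lowest library held 16 reads and the highest level was 11.1 times the lowest. In 9 of 10 Fc(mML1)B3 mice it was below all Fc mice. Ciart fell by 1.96 on the log2 scale (standard error 0.33, adjusted p = 0.00028). The Fc(mML1)B3 mice divided by the number series of their libraries, with 6.74 to 11.4 CPM in mice 1 to 4 and 1.03 to 3.44 CPM in mice 5 to 10, which did not overlap. The log2 fold change of Ciart was accordingly -1.10 (adjusted p = 0.0115) with mice 1 to 4 alone and -3.12 (adjusted p = 2.41e-07) with mice 5 to 10 alone. The part of the library series in this difference was not tested.

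Ciart in the standard diet mice was between 2.17 and 19.0 CPM with Fc (median 11.2 CPM) and between 17.7 and 33.5 CPM with Fc(mML1)B3 (median 22.7 CPM). The ranges met only at 17.7 to 19.0 CPM, with 6 of 7 Fc(mML1)B3 mice above all Fc mice. Ciart rose by 1.05 (standard error 0.24, adjusted p = 0.00574). Without Fc mouse 1, which had the lowest level, the log2 fold change was 0.91 and was still called. With the Fc mice 6 to 9, whose libraries share a number series with the Fc(mML1)B3 libraries, it was 0.70 (adjusted p = 0.0275), and Per1, Per2, Per3 and Cry1 were also called with these 4 Fc mice, at 0.56, 1.04, 0.56 and 1.05.

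Permutation tests of the mean log2 CPM of each gene, which use no count model, were made for the 6 genes under both diets and adjusted over these 12 tests. Under the HFD (100000 resamples) they gave an adjusted p of 6e-05 for Per3 and Cry1, from the smallest p that these resamples can give, 0.00012 for Ciart, 0.00243 for Per2, 0.00316 for Per1 and 0.89 for Cry2. Under the standard diet (exact, 11440 groupings) Per2 and Cry1 had the smallest p that 7 mice against 9 allow, with an adjusted p of 0.00021, Per3 had 0.00035, Per1 and Ciart had 0.00105 and Cry2 had 0.272. The directions and the 5 genes below 0.05 were those of edgeR in both diets.

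An interaction term fitted to the 36 libraries compared the 2 diets in their response to Fc(mML1)B3, taken as the effect under the standard diet minus that under the HFD. Here 5 of the 6 genes were called, 4 higher and 1 lower, against 9.06% of the 14105 genes tested. Ciart differed most, by 3.03 on the log2 scale (standard error 0.44, adjusted p = 7.42e-06), and Per3 by 1.96 (standard error 0.19, adjusted p = 4.12e-09), which placed Per3 at rank 8 by p. Per1 differed by 1.51 (adjusted p = 0.000129). For these 3 genes the sign itself changed from lower under the HFD to higher under the standard diet. Per2, higher under both diets, rose by 0.78 more under the standard diet (adjusted p = 0.00308), and Cry1, also higher under both, had an interaction of -1.05 (adjusted p = 0.0114), the greater rise being under the HFD. With mice 1 to 4 of the Fc(mML1)B3 HFD group alone, a setting chosen after seeing the data, the Cry1 interaction was -0.76 and was not called (adjusted p = 0.179). The size for the genes whose sign changed also moved with the library series. With mice 1 to 4 alone and mice 5 to 10 alone it was 2.16 and 4.17 for Ciart, 1.63 and 2.21 for Per3, and 1.19 and 1.73 for Per1, all called. The Cry2 interaction was 0.11 (95% confidence interval -0.16 to 0.38, adjusted p = 0.727).

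**Figure D2:**
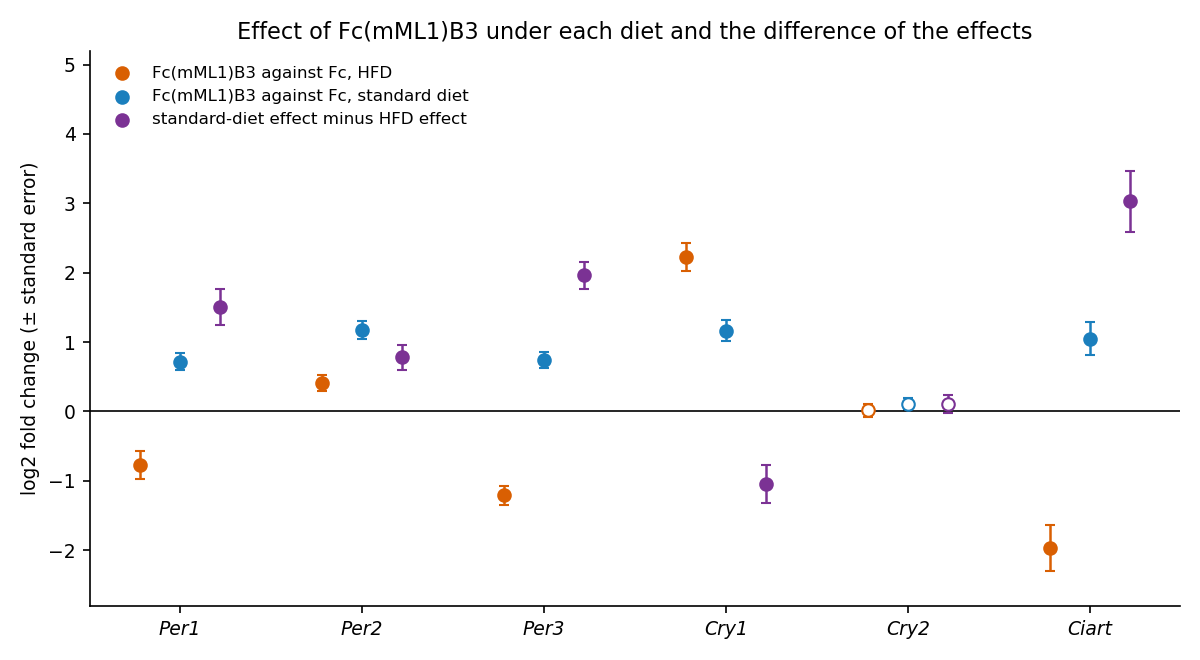
Log2 fold change of Fc(mML1)B3 against Fc under the HFD (orange) and the standard diet (blue) and the difference of these effects (purple), with standard errors as bars and filled points where the adjusted p is below 0.05. Per1, Per3 and Ciart lie below 0 under the HFD and above 0 under the standard diet, Per2 and Cry1 lie above 0 under both, and Cry2 stays near 0.

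The Fc mice of the 2 diets were also compared with each other. In the standard diet mice Per1, Per2, Per3, Cry1 and Ciart were lower than in the HFD mice, with log2 fold changes of -0.44, -0.64, -0.64, -0.55 and -0.81, and Cry2 was at 0.00. All 5 were called, beside 47.9% of all 14105 genes that were called in this comparison of experiments and 24.6% that were called lower. Per2 (adjusted p = 6.53e-05) and Per3 (adjusted p = 0.000132) had the smallest p. The calls of the other 3 stood nearer the threshold, at adjusted p = 0.0198 for Cry1, 0.0231 for Ciart and 0.0409 for Per1. The call of Per1 was lost in 15 of 36 fits with 1 library removed, with log2 fold changes between -0.44 and -0.38. These libraries were Fc HFD mice 1, 4, 7, 8, 9 and 10, Fc standard diet mice 1, 2, 4, 5 and 8, and Fc(mML1)B3 standard diet mice 2, 4, 5 and 6. Without Fc HFD mouse 8 both Per1 (-0.39) and Cry1 (-0.46, adjusted p = 0.0502) were lost, leaving 3 members called. Among 5 fits with another tool, scaling or filter or with halved counts, 1 also lost the call of Per1.

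The Fc(mML1)B3 mice of the 2 diets were compared in the same way. Per1 was higher under the standard diet by 1.06 (standard error 0.19), Per3 by 1.32 (standard error 0.14) and Ciart by 2.21 (standard error 0.32), and Cry1 was lower, at -1.60 (standard error 0.20). The 4 calls compare with 38.5% of all genes. Per2, at 0.14 (adjusted p = 0.402), and Cry2, at 0.10 (adjusted p = 0.411), did not pass, so that Per2 differed between the diets with Fc and not detectably with Fc(mML1)B3, with an interval of -0.12 to 0.40. This comparison shares the fit with the interaction and adds no independent evidence to it.

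For Per1, Per3 and Ciart the order from low to high was Fc(mML1)B3 HFD, Fc standard diet, Fc HFD and Fc(mML1)B3 standard diet. The neighbours in this order overlapped for all 3 genes, as did the Fc HFD and Fc(mML1)B3 standard diet groups, with means of 46.1 ± 6.54 (SD, n = 10) and 49.4 ± 5.84 CPM (SD, n = 7) for Per3. For Per2 the order was Fc standard diet, Fc HFD, Fc(mML1)B3 HFD and Fc(mML1)B3 standard diet, the last 2 overlapping at 54.7 ± 9.72 (SD, n = 10) and 60.3 ± 13.99 CPM (SD, n = 7). Cry1 alone had its highest level in the Fc(mML1)B3 HFD group, at 46.7 ± 12.6 CPM (SD, n = 10), and did not overlap there with the standard diet mice given Fc(mML1)B3, at 15.4 ± 4.42 CPM (SD, n = 7).

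Within the families the make-up of the transcripts moved. Per kilobase of exon, Cry1 made up 27.7% ± 9.02 (SD, n = 10) of the sum of Cry1 and Cry2 with Fc and 63.0% ± 6.42 (SD, n = 10) with Fc(mML1)B3 under the HFD, with no overlap, the highest Fc mouse being at 40.9% and the lowest Fc(mML1)B3 mouse at 49.4%. The Cry1 share under the standard diet was 20.9% ± 4.60 (SD, n = 9) with Fc and 34.8% ± 7.23 (SD, n = 7) with Fc(mML1)B3, between 26.6% and 43.6%, against at most 28.4% with Fc. Among the period genes, Per2 made up 29.9% ± 5.17 (SD, n = 10) with Fc and 53.0% ± 10.0 (SD, n = 10) with Fc(mML1)B3 under the HFD, where the lowest Fc(mML1)B3 mouse (42.2%) was above the highest Fc mouse (38.0%). Per3 went from 32.3% ± 4.68 to 18.0% ± 3.87 in the same groups. The period shares under the standard diet overlapped between the groups for all 3 genes. These shares restate the levels above and were not tested separately.

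The 3 period genes summed to 23.8 ± 3.21 CPM per kb (SD, n = 10) with Fc and 17.9 ± 2.68 CPM per kb (SD, n = 10) with Fc(mML1)B3 under the HFD, and to 16.1 ± 2.53 (SD, n = 9) and 29.6 ± 2.54 CPM per kb (SD, n = 7) under the standard diet. The 2 cryptochromes summed to 12.1 ± 1.36 and 24.2 ± 4.65 CPM per kb under the HFD and to 10.98 ± 1.22 and 14.5 ± 1.52 CPM per kb under the standard diet. Cryptochrome transcripts thus exceeded period transcripts per kilobase in the mean of the Fc(mML1)B3 HFD group and in no other group.

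**Figure D3:**
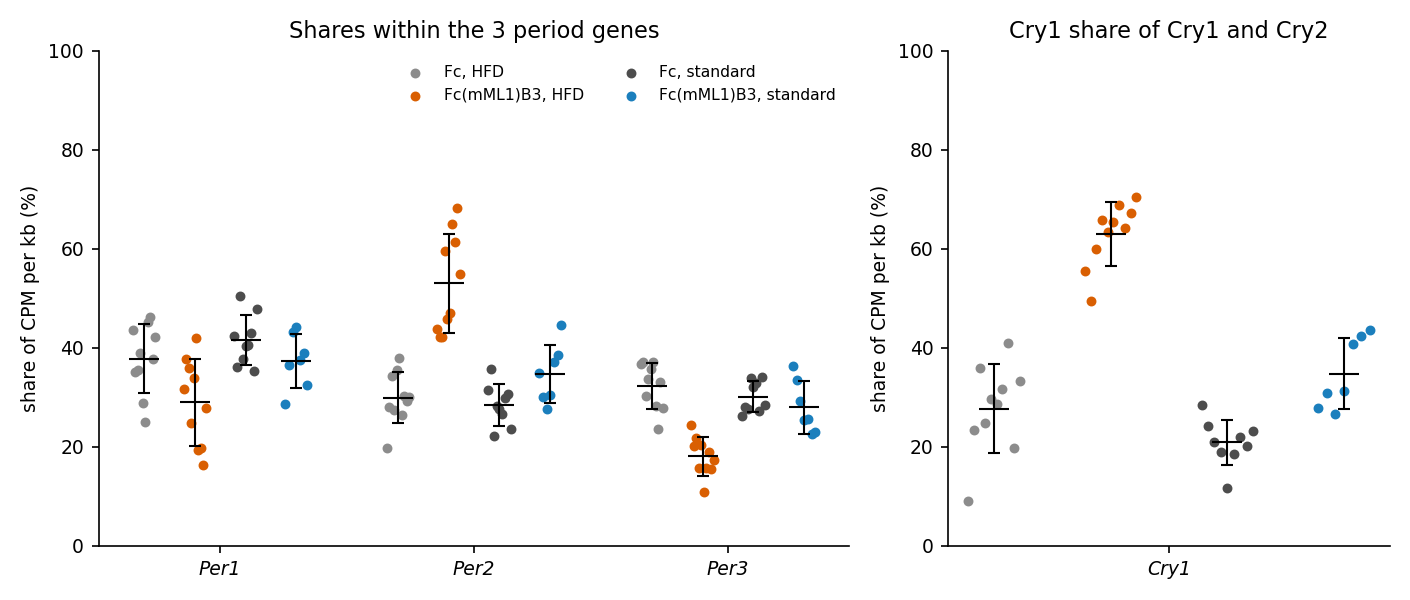
Share (%) of each gene in the summed CPM per kb of its family, 1 point per mouse, with mean and SD in black: the 3 period genes on the left and Cry1 within the 2 cryptochromes on the right. In the Fc(mML1)B3 HFD group Per2 makes up 53.0% of the period transcripts and Cry1 63.0% of the cryptochrome transcripts on average.

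Within each group the genes were compared from mouse to mouse, as 15 pairs in 4 groups, 60 relations in all, with log2 CPM and permutation tests adjusted over the 60. By Pearson's r 6 relations passed, and by Spearman's rho none did, the smallest adjusted p being 0.135. Without TMM scaling 5 passed by r and 1 by rho, and which relation passed in the Fc(mML1)B3 HFD group changed with the scaling. The points of a group share their libraries and their scaling. In the Fc(mML1)B3 HFD group, mice with more Cry1 had less Per3, with r = -0.88 (permutation test, adjusted p = 0.030) and rho = -0.71 (permutation test, adjusted p = 0.205). It was -0.93 without the 2 mice farthest from the median of Per3, and -0.75 over mice 5 to 10 alone. With log2 CPM from library totals without TMM scaling, Per3 and Cry1 had r = -0.72 and did not pass (permutation test, adjusted p = 0.122). The relation that passed in this group was then that of Cry1 and Ciart, with r = -0.90 (permutation test, adjusted p = 0.0132) and rho = -0.94 (permutation test, adjusted p = 0.0126), against r = -0.76 (permutation test, adjusted p = 0.0934) with TMM scaling. Ciart did not overlap between the 2 series of libraries in this group, and over mice 5 to 10 alone Cry1 and Ciart had r = -0.77 without TMM scaling and -0.47 with it. Per3 and Ciart had r = 0.69 over all 10 mice and 0.11 over mice 5 to 10, and Per1 and Ciart had 0.76 and 0.84, all with TMM scaling.

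In the Fc(mML1)B3 standard diet group Per2 and Cry1 went together, with r = 0.96 (exact permutation test, adjusted p = 0.030) and rho = 0.93 (exact permutation test, adjusted p = 0.135), and r = 0.94 without the 2 mice farthest from the median of Per2. The other 4 relations that passed lay in the Fc standard diet group, Per3 with Ciart (r = 0.87), Per3 with Cry2 (r = 0.90), Cry2 with Ciart (r = 0.93) and Per1 with Ciart (r = 0.74), each with an adjusted p between 0.030 and 0.042 by exact permutation tests. Fc mouse 1 of this experiment was the lowest of its group for Per1 (23.0 CPM), Per3 (18.3 CPM), Cry2 (23.97 CPM) and Ciart (2.17 CPM), while its Cry1, at 7.17 CPM, was near the median. Without the 2 mice farthest from the median of the first gene of each pair, these 4 values of r were 0.54, 0.52, 0.41 and 0.49. Without TMM scaling the relation of Per1 with Ciart did not pass (r = 0.70, exact permutation test, adjusted p = 0.0961). The Fc standard diet group also holds 2 library series. Mean levels in mice 1 to 5 and mice 6 to 9 were 28.5 and 35.2 CPM for Per1, and 26.4 and 33.4 CPM for Per3. They were 32.9 and 37.3 CPM for Cry2, and 8.80 and 14.6 CPM for Ciart. The part of the library series in these relations was not tested. No relation passed in the Fc HFD group.

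**Figure D4:**
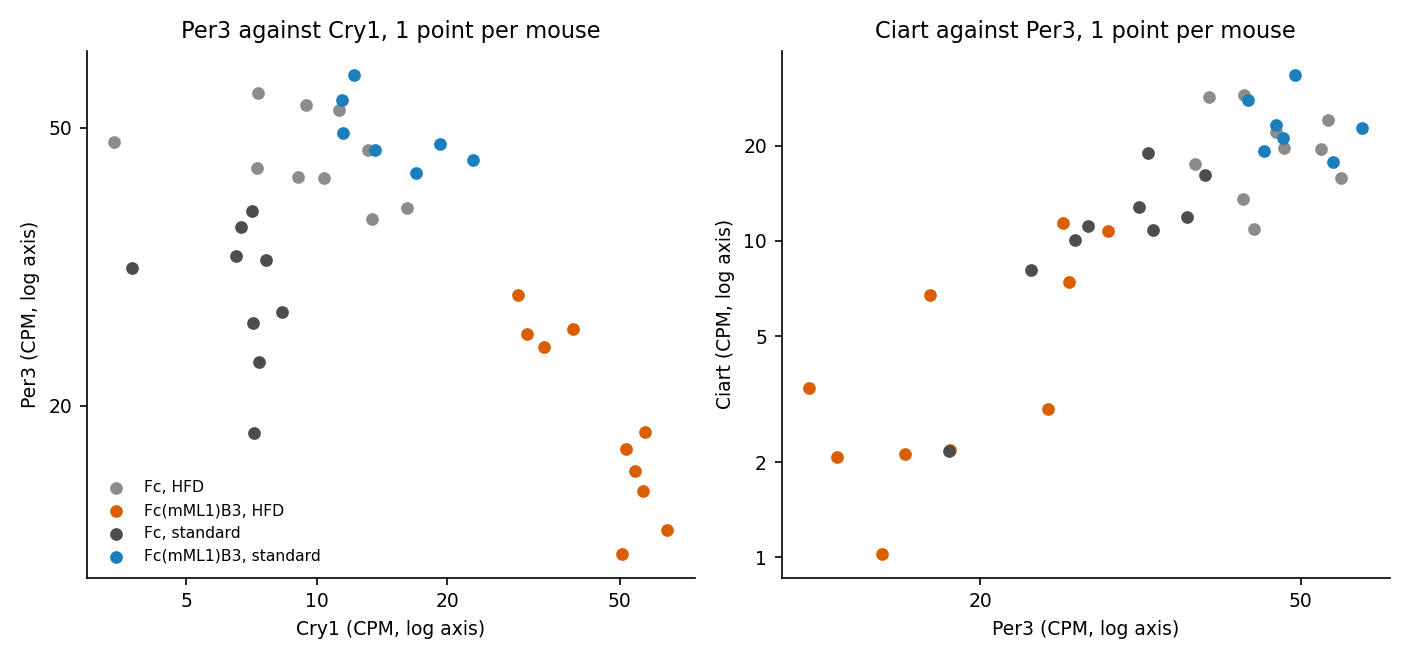
CPM of Per3 against Cry1 (left) and of Ciart against Per3 (right) on log axes, 1 point per mouse, coloured by group. The Fc(mML1)B3 HFD mice lie apart at high Cry1 and low Per3, and among them Per3 is lower where Cry1 is higher (r = -0.88 on log2 CPM with TMM scaling, -0.72 and not called without it).

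Over all 36 libraries, after the mean of each group was subtracted, the genes whose log2 CPM went most closely with each of the 6 were looked up among 14105 genes. For Per3 these were Nr1d2 (r = 0.87), Dbp (r = 0.86) and Anxa7 (r = 0.81), of which the first 2 encode clock factors, a REV-ERB receptor and a PAR bZIP factor. For Ciart they were Usp2 (r = 0.85), Upp2 (r = 0.81) and Klf13 (r = 0.79), and among the 3 closest were Pim3 (r = 0.77) and Dcstamp (r = 0.72) for Per1 and Iffo2 (r = 0.66) and Slc25a37 (r = 0.63) for Per2. Cry1 went with Dnajb4, Ptcd2 (r = 0.74 each) and Slmo2 (r = 0.73), and Cry2 with Ipmk (r = 0.82), Grpel2 (r = 0.74) and Dyrk1b (r = 0.72). The most negative values were those of Clpx for Per3 (r = -0.82), Nr1d1 for Cry1 (r = -0.80), Epm2aip1 for Ciart (r = -0.74), Jmjd6 for Cry2 (r = -0.73), Osgin1 for Per1 (r = -0.68) and B930025P03Rik for Per2 (r = -0.67). These are descriptions over libraries that share their depth and number series.

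The other genes of the clock were counted from 7 lists with 51 genes, of which 50 were in the files. Under the HFD 13 of the 48 tested (27.1%) were called, 6 higher and 7 lower, beside 14.8% of all genes, and under the standard diet 17 of 49 (34.7%), 9 higher and 8 lower, beside 16.1% of all genes. Among the activators, Arntl was at 1.196 ± 0.506 CPM (SD, n = 10) with Fc and 18.6 ± 8.15 CPM (SD, n = 10) with Fc(mML1)B3 under the HFD, a rise of 3.98, and Clock rose by 1.02. In the standard diet experiment Arntl fell by 1.05, Clock by 0.69 and Npas2, a homologue of CLOCK, by 2.12. Npas2 had few reads, with means of 0.92 CPM with Fc and 0.21 CPM with Fc(mML1)B3 under the standard diet. Under the HFD Npas2 was below the filter on low counts and was not tested. Its means there were 0.22 CPM with Fc and 1.15 CPM with Fc(mML1)B3, where the highest mouse was at 3.70 CPM. The interactions of Arntl (-5.02, adjusted p = 1.48e-10) and Clock (-1.69, adjusted p = 2.39e-09) were called. Their direction was opposite to that of Per1, Per2, Per3 and Ciart and the same as that of Cry1.

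Of the REV-ERB and ROR receptors, which repress and activate Arntl and other genes through ROR elements, Nr1d1 fell with Fc(mML1)B3 by 2.97 under the HFD and by 1.68 under the standard diet. Nr1d2 fell by 1.51 under the HFD and was at -0.02 under the standard diet (adjusted p = 0.927), with a called interaction of 1.51. Of the PAR bZIP factors, activators at D-boxes, Tef was called lower under the HFD and higher under the standard diet, and the others were called in 1 diet each. Dbp fell by 3.31 and Tef by 0.76 in the HFD comparison, where Hlf was at 0.06 (adjusted p = 0.705). In that of the standard diet Tef rose by 0.44, Hlf rose by 0.45 and Dbp was at 0.14 (adjusted p = 0.62498). Nfil3, a repressor at D-boxes, rose by 1.87 under the HFD and was at -0.29 (adjusted p = 0.182) under the standard diet. The interactions of Dbp (3.46), Tef (1.22), Hlf (0.41) and Nfil3 (-2.15) were called. Under the HFD the size of several of these differences moved with the library series of the Fc(mML1)B3 group, and its part was not tested. With mice 1 to 4 alone and mice 5 to 10 alone the log2 fold change was 3.34 and 4.29 for Arntl, -2.41 and -3.51 for Nr1d1, -1.14 and -1.82 for Nr1d2, and -2.59 and -4.12 for Dbp, all called.

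Bhlhe41, a DEC repressor at E-boxes, fell by 0.93 and 0.69 under the HFD and the standard diet, and Bhlhe40 was at -0.12 and 0.22 and was not called. The next lists hold genes that act on the stability of PER and CRY proteins. Of the 13 kinases and phosphatases 0 were called with the HFD and 3 with the standard diet, with Csnk1d at 0.11 and -0.09 and not called, and with Csnk1e, the other main casein kinase of PER, at -0.22 (not called) and -0.28 (called). Under the HFD 1 of the 13, Csnk1e, had an unadjusted p under 0.05 in edgeR, and DESeq2 and limma-voom also called 0 of them. Of the 12 tested ubiquitin ligases and proteases 2 were called with the HFD and 4 with the standard diet. Against the shares of all genes called, 14.8% and 16.1%, counts as small as 2 of 12 or 2 of 10 and the 3 of 13 kinases are no result about these lists. The HFD count of the ligases and proteases depended on the tool, with 2 called by DESeq2, 6 by limma-voom and 6 at an unadjusted p under 0.05 in edgeR. Fbxl21, a ligase subunit that acts on CRY proteins, fell by 0.37 under the HFD (not called within either library series), and Usp2, a protease that removes ubiquitin from clock proteins, rose by 1.49 under the standard diet and was at -0.50 (adjusted p = 0.121) under the HFD. Of 10 partners of the complex 2 rose in each diet, among them Cipc, a further inhibitor of CLOCK, by 0.20 and 0.29.

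**Figure D5:**
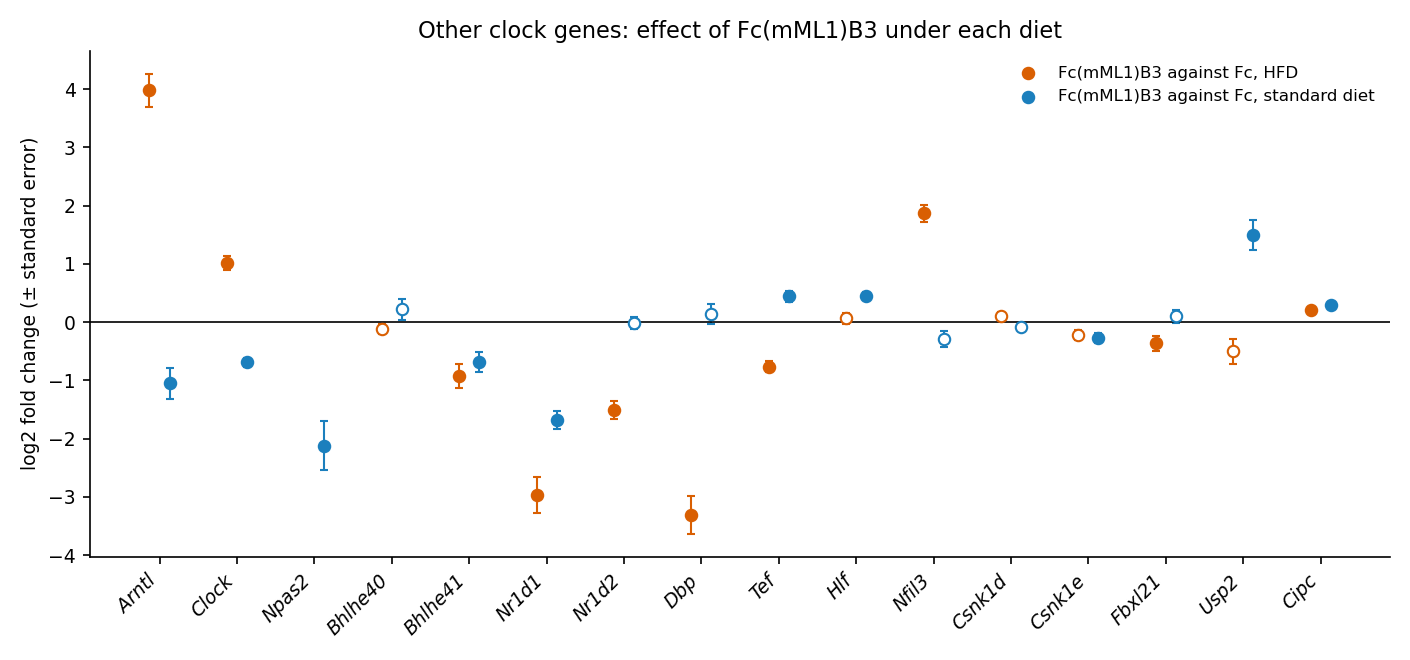
Log2 fold change of Fc(mML1)B3 against Fc for 16 other clock genes under the HFD (orange) and the standard diet (blue), with standard errors as bars and filled points where the adjusted p is below 0.05. Arntl and Clock are higher under the HFD and lower under the standard diet, and Nr1d1 is lower under both. The casein kinase gene Csnk1d is called under neither diet, and Csnk1e is called lower under the standard diet only.

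Some markers of other liver cell types moved with the comparisons. Under the HFD 2 of 2 tested neutrophil genes (S100a8, S100a9) and 2 of 4 B cell genes (Cd79b, Ms4a1) were lower with Fc(mML1)B3, beside 6.68% of all genes. Of the hepatocyte, stellate cell, macrophage, T cell, endothelial and cholangiocyte genes 0 were called by edgeR, with 1, 0, 2, 1, 0 and 1 of them at an unadjusted p under 0.05. DESeq2 called 0 of these genes too, while limma-voom called 1 hepatocyte, 1 stellate cell and 1 cholangiocyte gene and 0 neutrophil genes. The neutrophil genes summed to between 4.19 and 54.2 CPM in the Fc group and between 3.79 and 9.89 CPM in the Fc(mML1)B3 group, and the B cell genes to between 5.46 and 13.9 CPM and between 4.56 and 8.75 CPM. Under the standard diet 2 of 5 hepatocyte genes (Cps1 and Cyp2e1) were higher, beside 8.56% of all genes. Of 5 genes each, 1 stellate cell gene (Des) and 1 cholangiocyte gene (Sox9) were lower, beside 7.55% of all genes. A single gene of a list is no result about that cell type. Of the 5 stellate cell genes 4 had an unadjusted p under 0.05 in edgeR, and DESeq2 and limma-voom each called 2. Between the Fc groups of the 2 diets 4 of 5 stellate cell, 4 of 4 T cell and 3 of 4 B cell genes were lower under the standard diet, beside 24.6% of all genes. Also lower were 2 of 5 cholangiocyte genes and 1 of 5 macrophage genes. Of 5 genes each, 1 hepatocyte and 1 endothelial gene were higher, beside 23.3% of all genes. The counts of 1 of 5 are near these shares and are no result about these lists. The stellate cell genes summed to between 173 and 392 CPM under the HFD and between 122 and 216 CPM under the standard diet. Between the Fc(mML1)B3 groups 3 of 5 stellate cell and 2 of 4 T cell genes were lower under the standard diet, beside 17.9% of all genes. Here too 2 of 5 cholangiocyte genes and 1 of 5 macrophage genes were lower. Higher were 1 of 4 B cell, 1 of 5 hepatocyte and 1 of 5 endothelial genes, beside 20.7% of all genes. Counts of 1 gene of a list are again near these shares and no result. In the interaction 3 of 4 B cell genes were called higher (Cd79a, Cd79b and Ms4a1, with a median of 1.04 over the 4), beside 4.66% of all genes. This direction was also seen for Per1, Per2, Per3 and Ciart and was opposite to that of Cry1. The part of these cells in the differences of the clock genes was not tested.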

How the data were processed

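Liver RNA of 36 mice was sequenced with a directional kit on a DNBSEQ-G400. Per the study's methods and the submitters' processing notes, the authors trimmed reads with fastp, removed ribosomal reads with Bowtie2 (version 2.4.5), aligned to mm10 with STAR (version 2.7.10a) and counted reads per gene with featureCounts of Subread (version 2.0.3). The deposited files hold these raw counts, without normalization. The counting ignored strand, left out reads that align to several places and counted each end of a pair, so counting error is understated by the count alone. An alternative with halved counts was added after seeing the data.

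Groups came from the sample titles. Genes were filtered with filterByExpr, scaled by TMM and tested by quasi-likelihood in edgeR (version 4.0.16, R version 4.3.3), within each diet for Fc(mML1)B3 against Fc and over all 36 libraries for the interaction and the diet comparisons, with Benjamini-Hochberg adjustment over all genes tested. CPM values use TMM factors over all 36 libraries, and log2 CPM has a prior count of 1. DESeq2 (version 1.42.0), limma-voom with quality weights (limma version 3.58.1), other scalings and filters, the thresholds of the study, the replicate number as a block and fits without each library were alternatives. The fits were tested on simulated data. Of 147 pairs of libraries within groups, none agreed within sampling noise (lowest chi-square per degree of freedom 6.31). The replicates are separate mice. The 6 genes are all named, with genes among the 3 most like each, and other clock genes come from fixed lists. Some genes of these lists are not reported here. Members and lists were chosen with earlier results of these data known.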

Additional observations from a re-analysis of the deposited data

Results flagged for a closer look

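Of 24 sets of values (6 genes in 4 groups), 1 held a mouse far from the others by Dixon's test, which flags about 1 in 20 sets by chance. Cry1 was at 3.74 CPM in Fc standard diet mouse 5, and the next lowest mouse was at 6.51 CPM, a gap of 0.609 of the range of the group.

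The interaction term of edgeR was called for 5 genes, as standard diet minus HFD on the log2 scale: 1.51 for Per1, 0.78 for Per2, 1.96 for Per3, -1.05 for Cry1 and 3.03 for Ciart. Diet cannot be told apart from experiment, dosing and library series in these values.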

How the results depend on the processing

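Directions of the called members were the same under every alternative run. With the thresholds of the study (adjusted p below 0.1 and a fold above 2 for the HFD, adjusted p below 0.05 and a fold above 1.5 for the standard diet), 3 of the 6 members were called under the HFD, and 3 with Fc(mML1)B3 mice 1 to 4 only. Between the Fc groups of the 2 diets, fits without 1 library called 3 to 5 members. Of the other clock genes, the thresholds of the study left 7 in the HFD comparison and 7 in that of the standard diet, 11 were called under the standard diet in the fit with all 36 libraries, and 8 in the interaction with Fc(mML1)B3 HFD mice 1 to 4 only. The cause of these changes was not tested beyond the stricter thresholds and the fewer samples.

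The replicate numbers did not pair the mice, since the correlations of same-numbered mice ran from -0.60 to 0.24 under the HFD. With the replicate block 4 members were called under the HFD, Per1 being lost (-0.82, adjusted p = 0.0594 by edgeR), and 5 under the standard diet, with 1294 and 1296 genes called in all.

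The study also names an adjusted p below 0.1 and a fold above 2 for the standard diet, and with these, added after seeing the data, 3 members (Per2, Cry1 and Ciart), 5 other clock genes and 82 genes in all were called there.

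Over all genes, 1972 were called under the HFD, against 178 with the thresholds of the study, 705 with mice 1 to 4 only, 3039 by limma-voom and 3133 in the fit with all 36 libraries. Under the standard diet 2186 were called, against 320 with the thresholds of the study, 942 with Fc mice 6 to 9 only and 785 in the fit with all 36 libraries. In the interaction 1278 were called, against 620 with mice 1 to 4 only and 1937 with mice 5 to 10 only. Upper-quartile scaling moved the HFD split from 1083 higher and 889 lower to 865 and 1075, that between the Fc groups from 3288 and 3471 to 2523 and 4795, and that between the Fc(mML1)B3 groups from 2914 and 2520 to 2208 and 3799, the median log2 fold change of all genes being -0.13 and -0.11 in the last 2. Of the 60 relations between members within groups, 5 passed without TMM scaling in place of 6, with Cry1 and Ciart in place of Per3 and Cry1 in the Fc(mML1)B3 HFD group. Depth limits Ciart most, with 16 reads in its lowest library.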

Other observations

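The spread between mice of one group differed among the 6 genes. Ciart had a standard deviation of log2 CPM of 1.15 in the Fc(mML1)B3 HFD group, where 96.8% of 14105 genes had a smaller one, and of 0.90 in the Fc standard diet group, where 97.2% had a smaller one. The second value rests on Fc standard diet mouse 1, without which it was 0.39, and in the Fc(mML1)B3 HFD group Ciart had 0.38 within mice 1 to 4 and 0.59 within mice 5 to 10, the 2 library series that did not overlap. In the Fc HFD and Fc(mML1)B3 standard diet groups it was 0.45 and 0.31, with 75.1% and 74.6% of genes below. Cry2 lay between 0.15 and 0.24 in the 4 groups, with between 28.8% and 61.4% of genes below.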
